A study of Arabidopsis thaliana with 36 samples.

Results

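The flavonoid and anthocyanin pathway was read from a list of gene identifiers, written with earlier results of these data known. The list held 34 genes out of 34218 features in the deposited tables. They comprise 4 genes of the general phenylpropanoid entry, 6 early flavonoid genes, 2 late anthocyanin genes, 10 genes of sugar and acyl decoration or transport, and 12 regulators. RNA was counted in roots and rosettes (shoots in the labels) of Arabidopsis thaliana plants 42 days old. The 6 genotypes were 2 wild types, Col-0 and Col-4, the single mutants nlp2-2, nlp2-3 and nlp7-1, and the double mutant nlp2-3 nlp7-1. NLP2 and NLP7 are NIN-like transcription factors that act in the response to nitrate. All plants grew on sand with 5 mM nitrate, which the labels call non-limiting, in 8 h of light and 16 h of dark. The nitrate supply was thus the same in every group, and the labels do not give the nitrogen content of the plants. There were 3 biological replicates for each genotype and tissue, 36 libraries in all. Every sample, Col-4 included, carries the ecotype entry Col-0. The labels give neither the parent of each mutant nor the position of each mutation. nlp2-2 was set against Col-4 and the other mutants against Col-0.

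Flavonoids begin with phenylalanine, which PAL, C4H and 4CL turn into an activated cinnamic acid that also feeds lignin and sinapate esters. Chalcone synthase (CHS), chalcone isomerase (CHI), F3H and F3'H build the dihydroflavonols. Flavonol synthase (FLS1) draws these towards colourless flavonols, and dihydroflavonol reductase (DFR) and leucoanthocyanidin dioxygenase (LDOX) towards red and purple anthocyanins. In Arabidopsis leaves the late genes are switched on by a complex of a MYB protein (PAP1, PAP2, MYB113 or MYB114), a bHLH protein (TT8, GL3 or EGL3) and the WD-repeat protein TTG1. The early genes also answer to the flavonol regulators MYB11, MYB12 and MYB111, which need no bHLH partner. Anthocyanin pigmentation of rosettes is a familiar sign of nitrogen starvation.

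The upstream bases of CHS, DFR and LDOX are shown because CHS is the first of the early genes and DFR and LDOX are the late genes. Each sequence is the 250 bases before the gene's start in the RefSeq annotation of TAIR10.1, written 5′ to 3′ in the gene's own direction. Capitals mark the G-box CACGTG, to which bHLH and bZIP proteins can bind. CHS lies at chr5:4488226-4488475 on the plus strand, DFR at chr5:17166033-17166282 on the minus strand and LDOX at chr4:12006210-12006459 on the minus strand.
CHS: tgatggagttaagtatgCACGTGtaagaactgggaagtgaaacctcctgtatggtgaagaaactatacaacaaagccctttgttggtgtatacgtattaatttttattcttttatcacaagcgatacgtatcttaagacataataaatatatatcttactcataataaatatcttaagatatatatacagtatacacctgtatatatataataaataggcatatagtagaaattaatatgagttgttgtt
DFR: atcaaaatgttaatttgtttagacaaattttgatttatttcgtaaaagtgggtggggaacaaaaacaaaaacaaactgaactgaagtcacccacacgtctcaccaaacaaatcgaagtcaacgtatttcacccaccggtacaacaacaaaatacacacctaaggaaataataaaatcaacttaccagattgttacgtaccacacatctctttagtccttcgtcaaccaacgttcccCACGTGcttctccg
LDOX: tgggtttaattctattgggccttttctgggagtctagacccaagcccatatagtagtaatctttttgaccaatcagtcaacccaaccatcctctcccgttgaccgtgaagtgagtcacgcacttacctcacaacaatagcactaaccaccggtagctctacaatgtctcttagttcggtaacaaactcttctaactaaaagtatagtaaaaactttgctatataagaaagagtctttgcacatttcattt

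The G-box begins 233 bases before the start in CHS and 14 bases before it in DFR, and the LDOX window holds none. Both strands were searched. Of all 27443 protein-coding promoters of this length 6.49% hold a G-box, and 9 of the 34 pathway genes do. The looser E-box CANNTG, which contains the G-box, is in 23 of the 34 and 55.3% of all promoters. The MYB recognition element ANCNNCC is in 24 of the 34 and 48.8% of all, the MYB site ACCTACC in 1 of the 34 and 1.16% of all, and GACCCTT, one arm of the nitrate-responsive element that NLP proteins bind, in 1 of the 34 and 1.13% of all. A match is a run of letters in the window and no test of binding.

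The 4 MYB activators are close copies, and reads of one may be counted for another. The first 60 coding bases are shown on the same credit, with capitals where a base differs from PAP1. PAP1 lies at chr1:21235030-21235089 on the minus strand, and the other 3 stand beside each other on the plus strand, PAP2 at chr1:24764052-24764111, MYB113 at chr1:24753634-24753693 and MYB114 at chr1:24757413-24757472.
PAP1: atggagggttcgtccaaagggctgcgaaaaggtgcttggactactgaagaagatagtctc
PAP2: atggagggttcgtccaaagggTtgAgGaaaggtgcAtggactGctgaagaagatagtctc
MYB113: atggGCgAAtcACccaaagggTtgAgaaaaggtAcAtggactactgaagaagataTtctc
MYB114: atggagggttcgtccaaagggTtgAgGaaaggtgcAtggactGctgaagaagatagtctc

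In this stretch PAP2 and MYB114 carry the same letters and differ from PAP1 at 5 bases, and MYB113 differs at 11. Over the aligned coding bases PAP1 and PAP2 were 84.3% identical, and PAP2 and MYB114 91.4%. The acyltransferase genes AT1G03940 and AT1G03495 were 97.6% identical over 1041 coding bases, so their separate counts are uncertain.

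The total count per library ran from 18385020 to 28538665 in roots and from 18150510 to 31657474 in shoots. The share of it that fell on the pathway genes was 0.200 to 0.269% for root and 0.178 to 0.364% for shoot libraries. Levels are CPM, counts per 1e+06 counts, after TMM scaling within each tissue, given with the SD of n = 3 libraries. Fold changes are log2 ratios with their standard error (SE) from edgeR's quasi-likelihood test over all genes of a tissue, and a gene was called when its Benjamini-Hochberg adjusted p was under 0.05. NLP2 transcripts were lower in each nlp2 mutant than in its wild type and NLP7 transcripts lower in each nlp7-1 line, all called in both tissues, with log2 fold changes from -0.41 ± 0.11 for NLP2 in double mutant roots to -2.57 ± 0.07 for NLP2 in double mutant shoots. The root marker genes stood at 0.800 CPM or less in every shoot library. Leaf markers in root libraries stood at most at 0.390% of their shoot level, and CA1, a leaf carbonic anhydrase, at 0 to 0.557 CPM against 3303 CPM or more in every shoot library. In bulk RNA, fewer cells of a type and less RNA per cell cannot be told apart.

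In shoots of the double mutant the pathway rose along most of its length. Of the 34 genes 32 passed the filter on low counts, and 23 of these rose and 2 fell, where 15.5% of all 19137 genes tested rose and 15.6% fell. PAP2 passed the filter only through the double mutant, where it was high, and without it 22 of 31 rose and 2 fell. Both late genes rose, DFR by 1.90 ± 0.26 and LDOX by 1.78 ± 0.25, and the decoration genes had a median log2 fold change of 1.36, the early genes of 0.46 and all genes tested of -0.01. FLS1, the flavonol branch enzyme, did not pass the test against Col-0 (0.05 ± 0.10, adjusted p = 0.751). Every double mutant library held more FLS1 than any library of Col-4. All 3 double mutant libraries lay above all 3 of Col-0 for 26 of the 32 genes (25 of 31 without PAP2), against 22.1% of all genes, below them for 2, against 22.6%, and above all 15 other shoot libraries for 20, against 7.61%. A total of 21 of the 25 calls held under every alternative tried. The other 4, all regulators (PAP2, MYB113, TTG1 and MYBL2), lost their call under at least 1 alternative.

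**Figure D1:**
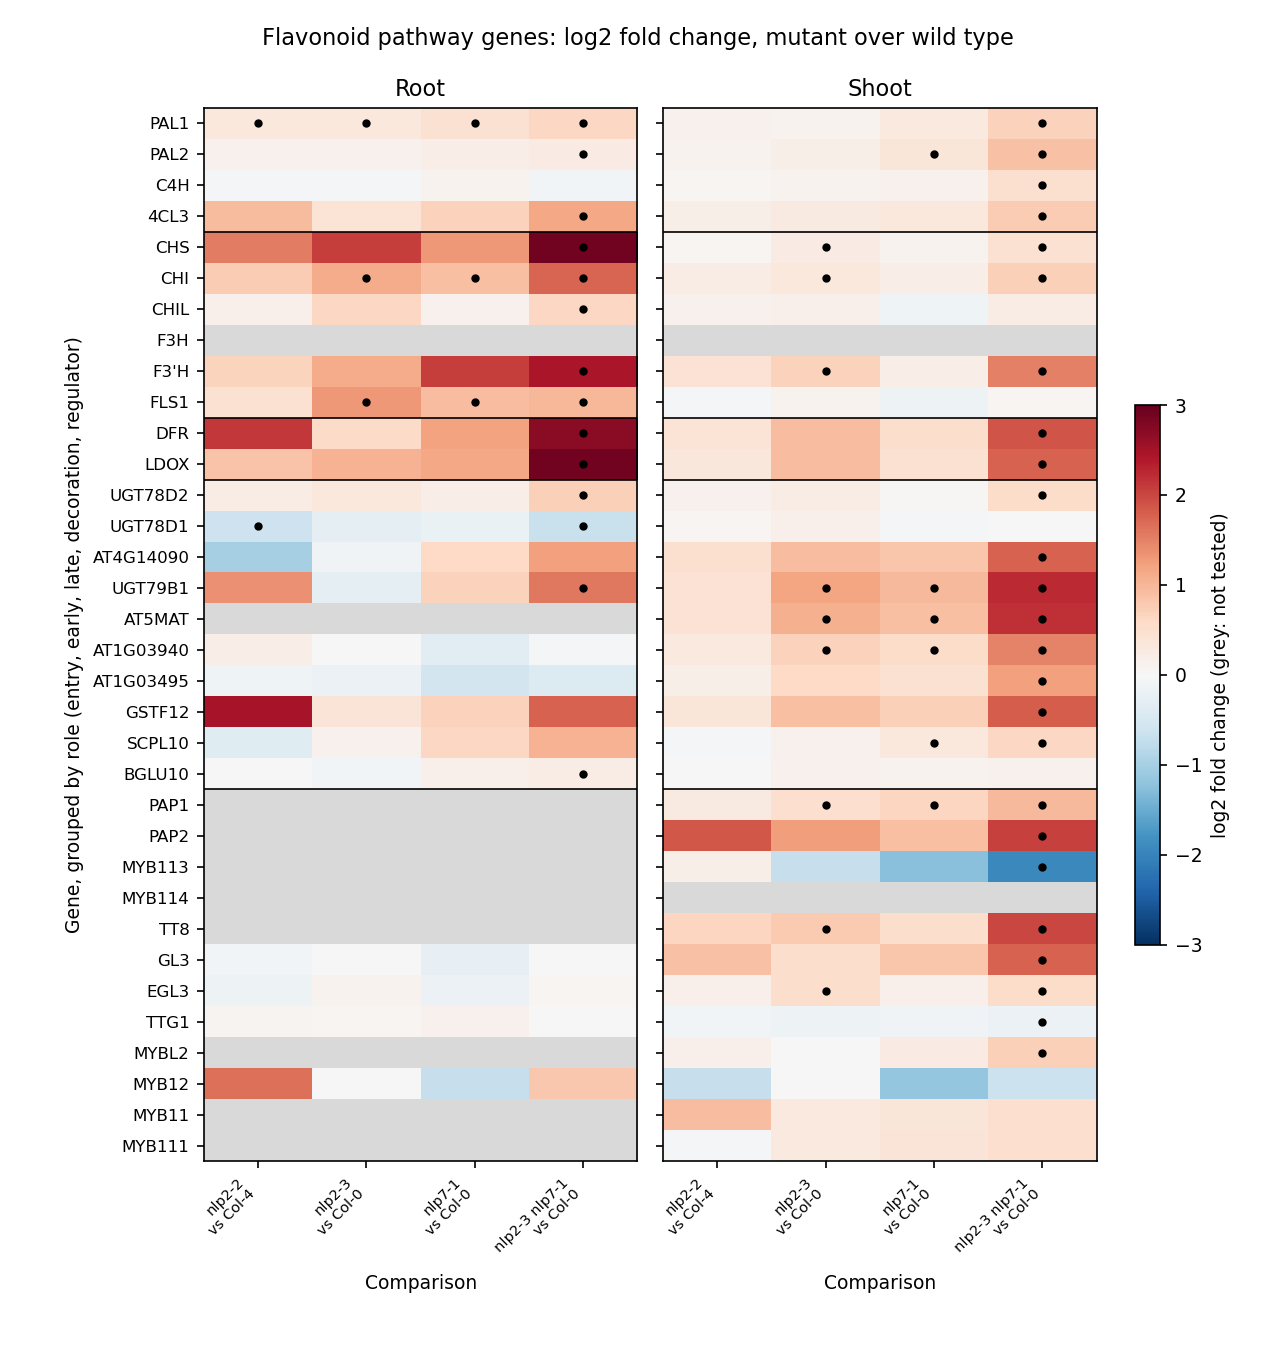
log2 fold change (colour) of the 34 genes in rows, grouped by role, in each mutant over its wild type in columns, for roots on the left and shoots on the right. A dot marks a call at adjusted p under 0.05 and grey a gene that was not tested. The double mutant column holds 14 dots in roots and 25 in shoots, more than any single mutant.

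The entry genes all rose in double mutant shoots. PAL2, one of the phenylalanine ammonia-lyases that open the pathway, stood at 171, 180 and 173 CPM in the 3 Col-0 libraries and at 322, 310 and 332 in the double mutant (0.88 ± 0.09, adjusted p = 1.35e-06). 4CL3, the coumarate ligase most tied to flavonoids, stood at 79.4, 80.8 and 81.3 CPM in Col-0 and at 135, 135 and 142 in the double mutant (0.77 ± 0.11). PAL1 stood at 274, 273 and 276 CPM in Col-0 and at 438, 426 and 456 in the double mutant (0.68 ± 0.12). In each of these 3 genes the groups were well apart and the double mutant lay above all 15 other shoot libraries. C4H, the cinnamate hydroxylase, rose by 0.48 ± 0.08.

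The early flavonoid genes did not move as one. CHS, whose enzyme makes the first flavonoid skeleton, stood at 535, 600 and 514 CPM in Col-0 and at 753, 763 and 745 in the double mutant (0.46 ± 0.06, adjusted p = 1.15e-06). The double mutant libraries lay above every other shoot library. CHI stood at 51.6, 56.6 and 46.1 CPM in Col-0 and at 80.9, 81.2 and 92.3 in the double mutant (0.72 ± 0.08). F3'H, the hydroxylase that sets the cyanidin and quercetin pattern of the B ring, stood at 13.8, 12.9 and 11.0 CPM in Col-0 and at 34.4, 39.6 and 33.2 in the double mutant (1.5 ± 0.18). The groups did not overlap in either gene. CHIL, a helper of chalcone synthesis, was not called (0.23 ± 0.14, adjusted p = 0.229). FLS1 stood at 111 ± 2.3 CPM in Col-0 and at 116 ± 3.2 in the double mutant. Both CHIL and FLS1 were lower in Col-4 shoots, with means of 79.2 and 73.7 CPM. The lowest double mutant library held 111 CPM of CHIL and 112 of FLS1. F3H was listed at or near 0 in every library, with 2 counts in all 36, and was not tested.

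Both late genes were well apart between the genotypes. DFR stood at 34.1, 31.2 and 30.6 CPM in Col-0 shoots and at 128, 119 and 111 in the double mutant (1.90 ± 0.26, adjusted p = 0.000101). LDOX stood at 30.7, 28.9 and 26.1 CPM in Col-0 and at 101, 101 and 93.2 in the double mutant (1.78 ± 0.25, adjusted p = 0.00014). No other shoot library reached the lowest double mutant library in either gene. The highest of the other libraries was nlp2-3 replicate 1, with 81.9 CPM of DFR and 65.8 of LDOX.

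**Figure D2:**
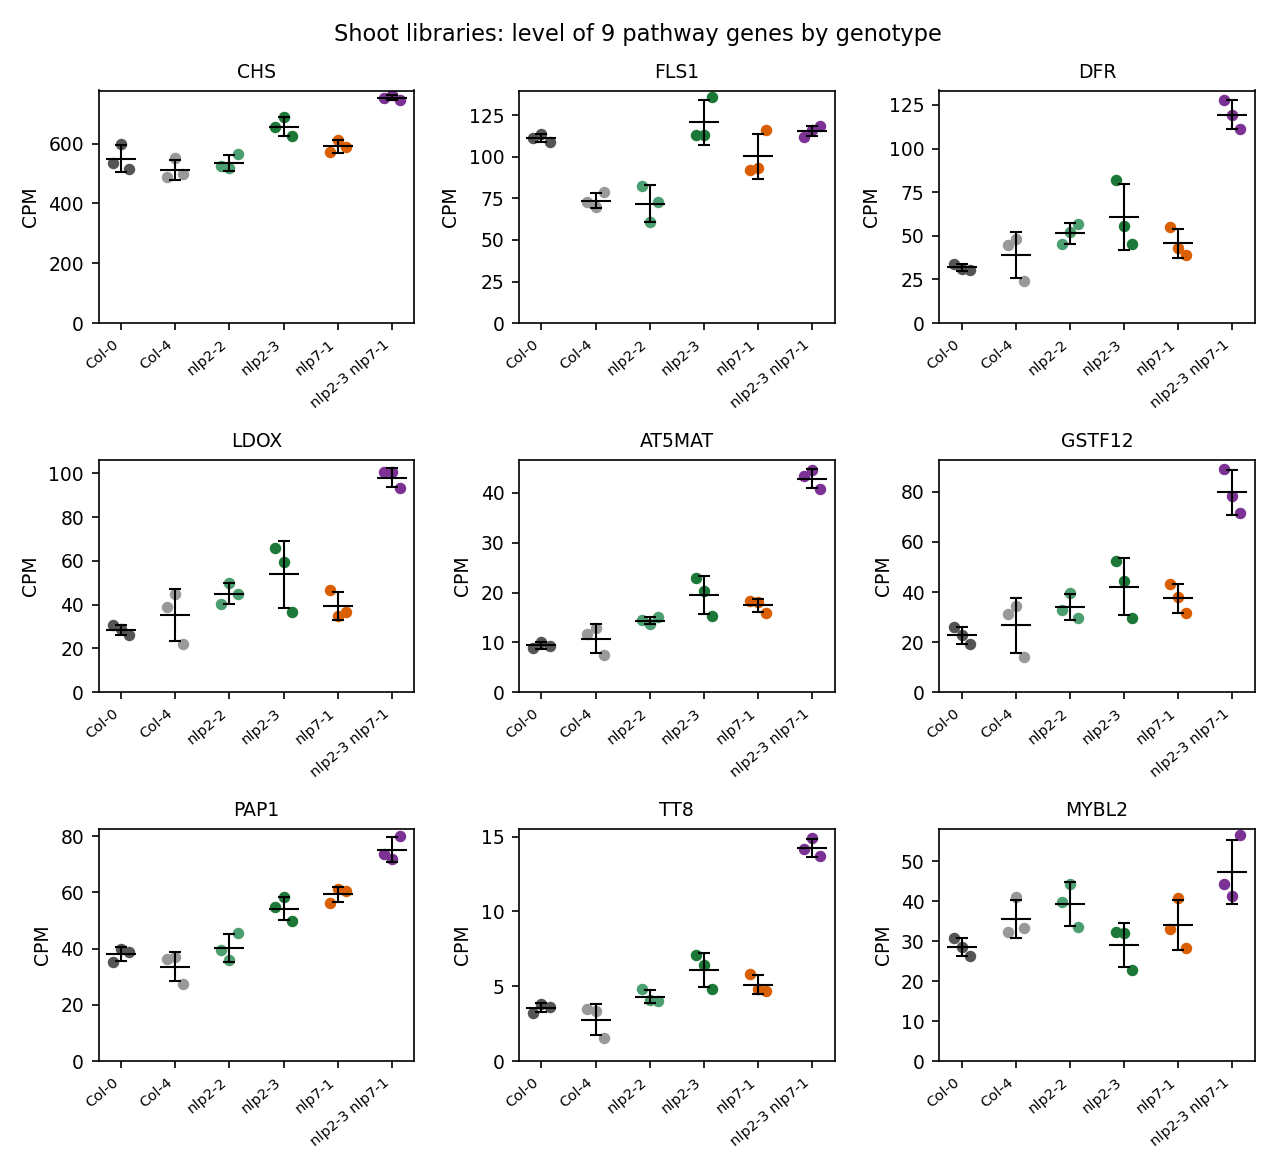
CPM in each of the 3 shoot libraries (points) of the 6 genotypes for 9 genes, with the mean and SD (bars). DFR, LDOX, AT5MAT, GSTF12, PAP1 and TT8 were highest in all 3 double mutant libraries, and FLS1 stood near 111 CPM in Col-0 and 116 in the double mutant but lower in Col-4 and nlp2-2.

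Of the 10 decoration genes 8 rose in double mutant shoots. UGT79B1, the xylosyltransferase of anthocyanins, stood at 10.1, 9.56 and 7.17 CPM in Col-0 and at 43.4, 45.2 and 39.8 in the double mutant (2.24 ± 0.25, adjusted p = 1.6e-05). AT5MAT, which adds malonate to the anthocyanin glucoside, stood at 8.82, 10.1 and 9.18 CPM in Col-0 and at 43.4, 44.5 and 40.7 in the double mutant (2.20 ± 0.15, adjusted p = 4.54e-09). GSTF12, a glutathione transferase needed to bring anthocyanin into the vacuole, stood at 25.9, 22.8 and 19.3 CPM in Col-0 and at 89.2, 78.4 and 71.7 in the double mutant (1.81 ± 0.29). These 3 genes lay above all other shoot libraries in each double mutant library. AT4G14090, the anthocyanidin 5-O-glucosyltransferase, rose by 1.76 ± 0.29, AT1G03940 by 1.49 ± 0.17 and AT1G03495 by 1.23 ± 0.18. SCPL10, which transfers sinapate to anthocyanins, rose by 0.62 ± 0.09, and UGT78D2, the flavonoid 3-O-glucosyltransferase shared by flavonols and anthocyanins, by 0.54 ± 0.07. UGT78D1, the flavonol 3-O-rhamnosyltransferase, stood at -0.01 ± 0.09 and BGLU10, an anthocyanin glucosyltransferase of the vacuole, at 0.13 ± 0.09, neither called.

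Among the regulators 5 rose and 2 fell, of 10 tested without PAP2, which also rose. PAP1, the main MYB activator of anthocyanin genes in leaves, stood at 35.4, 39.99 and 38.9 CPM in Col-0 shoots and at 73.6, 71.9 and 80.1 in the double mutant (0.98 ± 0.10, adjusted p = 1.95e-07). TT8, its bHLH partner, stood at 3.24, 3.81 and 3.64 CPM in Col-0 and at 14.1, 14.9 and 13.7 in the double mutant (2.00 ± 0.18, adjusted p = 8.44e-09). Both were above all other shoot libraries. GL3, another bHLH partner, rose by 1.76 ± 0.29 at a low level, 0.917 ± 0.17 CPM in Col-0 and 3.16 ± 0.44 in the double mutant. EGL3 rose by 0.55 ± 0.14. MYBL2, a repressor of the complex, rose by 0.72 ± 0.17, and this call was lost against Col-4 (adjusted p = 0.0807).

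PAP1 was by far the most abundant of the 4 MYB activators. Per length, in FPKM, Col-0 shoots held 34.5 ± 2.3 of PAP1, 0.981 ± 0.77 of MYB113, 0.244 ± 0.10 of MYB114 and 0.123 ± 0.11 of PAP2. PAP2 stood at 0.0697, 0.246 and 0.0543 CPM in Col-0 and at 0.639, 0.516 and 0.453 in the double mutant (2.04 ± 0.70, adjusted p = 0.0266), on 9 and 38 counts in all. Only 2 libraries outside the double mutant, and 0 of Col-0, reached the filter's minimum for PAP2, so it entered the test through the group in which it was high. Leaving out replicate 1 or 3 of Col-0, or 1 or 2 of the double mutant, ended that call (adjusted p up to 0.118). MYB113 went the other way, at 0.523, 0.492 and 1.74 CPM in Col-0 and at 0.256, 0.172 and 0.247 in the double mutant (-1.94 ± 0.61, adjusted p = 0.0173), and its call was lost without Col-0 replicate 3 (adjusted p = 0.205), the library that stood highest, without double mutant replicate 2, and against Col-4. TTG1 fell by 0.19 ± 0.07 on the log2 scale, a call lost under 9 of 14 alternatives. MYB12 (-0.64 ± 0.56), MYB11 (0.50 ± 0.40) and MYB111 (0.51 ± 0.29), the flavonol regulators, had group means of 0.323 to 2.88 CPM in shoots and were not called, and MYB114 was too low to test.

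Fewer of the genes were called in shoots of the single mutants. In nlp2-3 shoots 9 of 32 genes rose and 0 fell, where 1.33% of all genes rose and 4.47% fell. AT5MAT rose by 1.07 ± 0.16 (adjusted p = 0.000125), UGT79B1 by 1.19 ± 0.25, TT8 by 0.79 ± 0.19, AT1G03940 by 0.70 ± 0.17, F3'H by 0.69 ± 0.18, EGL3 by 0.54 ± 0.15, PAP1 by 0.51 ± 0.10, CHI by 0.32 ± 0.08 and CHS by 0.26 ± 0.06. DFR stood at 81.9, 55.5 and 45.1 CPM and LDOX at 65.8, 59.3 and 36.5, all above every Col-0 library, but the spread among the 3 was wide and neither passed the test (0.93 ± 0.26, adjusted p = 0.0542, and 0.92 ± 0.25, adjusted p = 0.0524). DESeq2 called both, as did limma. The calls of CHS, AT5MAT and PAP1 held under every alternative. The number called was 5 without Col-0 replicate 1 and 4 without Col-0 replicate 3.

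In nlp7-1 shoots 6 of 32 genes rose and 0 fell, where 4.84% of all genes rose and 4.93% fell. These were UGT79B1 (0.98 ± 0.25), AT5MAT (0.90 ± 0.15, adjusted p = 0.000997), PAP1 (0.64 ± 0.10, adjusted p = 0.000244), AT1G03940 (0.56 ± 0.17), PAL2 (0.36 ± 0.09) and SCPL10 (0.32 ± 0.09). PAP1 stood at 56.3, 61.1 and 60.3 CPM, above the Col-0 libraries and below those of the double mutant. No early gene was called, and CHS stood at 0.10 ± 0.06. AT5MAT and PAP1 held under every alternative. The number called was 3 without Col-0 replicate 2, and 2 without Col-0 replicate 3 or nlp7-1 replicate 1. Since nlp2-3, nlp7-1 and the double mutant share the Col-0 libraries, their values are set side by side and no agreement between them is counted.

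In nlp2-2 shoots 0 of 32 genes were called against Col-4 with edgeR, where 0.737% of all genes rose and 2.33% fell. An unadjusted p under 0.05 was reached by 7, and DESeq2 and limma called 0. Some of the genes were called with the replicate number as a block or with Col-0 as the reference, with the counts given further below. The lowest of these p-values were those of TT8 (0.65 ± 0.21, adjusted p = 0.107), GL3 (0.88 ± 0.33, adjusted p = 0.196) and CHI (0.23 ± 0.09, adjusted p = 0.204). NLP2 transcripts were less reduced in this line's shoots (-0.53 ± 0.07 against Col-4) than in those of nlp2-3 (-1.74 ± 0.07 against Col-0). Col-4 shoots were themselves below Col-0 in NLP2 (-0.37 ± 0.07). In roots the order was the reverse, with -1.62 ± 0.12 in nlp2-2 and -0.84 ± 0.11 in nlp2-3. The part of the NLP2 level in the result was not tested.

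The choice of wild type touched the entry and flavonol genes. In shoots Col-4 was lower than Col-0 in 6 of the 32 genes and higher in 0, where 0.611% of all genes were lower and 0.183% higher. 4CL3 differed by -0.76 ± 0.11, FLS1 by -0.60 ± 0.10, CHI by -0.55 ± 0.09, PAL2 and UGT78D2 by -0.43 ± 0.09 and -0.43 ± 0.07, and C4H by -0.36 ± 0.08. FLS1 stood at 72.8, 69.7 and 78.6 CPM in Col-4 and at 111, 114 and 109 in Col-0, with no overlap. The calls of 4CL3, CHI and UGT78D2 held under every alternative, and the number called fell to 3 without Col-0 replicate 2 or 3 or Col-4 replicate 1 or 2. No late gene was called between the wild types, with DFR at 0.28 ± 0.26 and LDOX at 0.30 ± 0.25, nor was any regulator. With the other wild type as the reference, 1 gene was higher and 6 were lower in nlp2-2 shoots, 17 were higher in nlp2-3 and 15 in nlp7-1, with 0 lower in either. In roots edgeR called 0 of 24 between the wild types, with 0 at an unadjusted p under 0.05 and 0 by DESeq2 or limma, where 0.0146% of all genes were higher and 0.0244% lower.

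**Figure D3:**
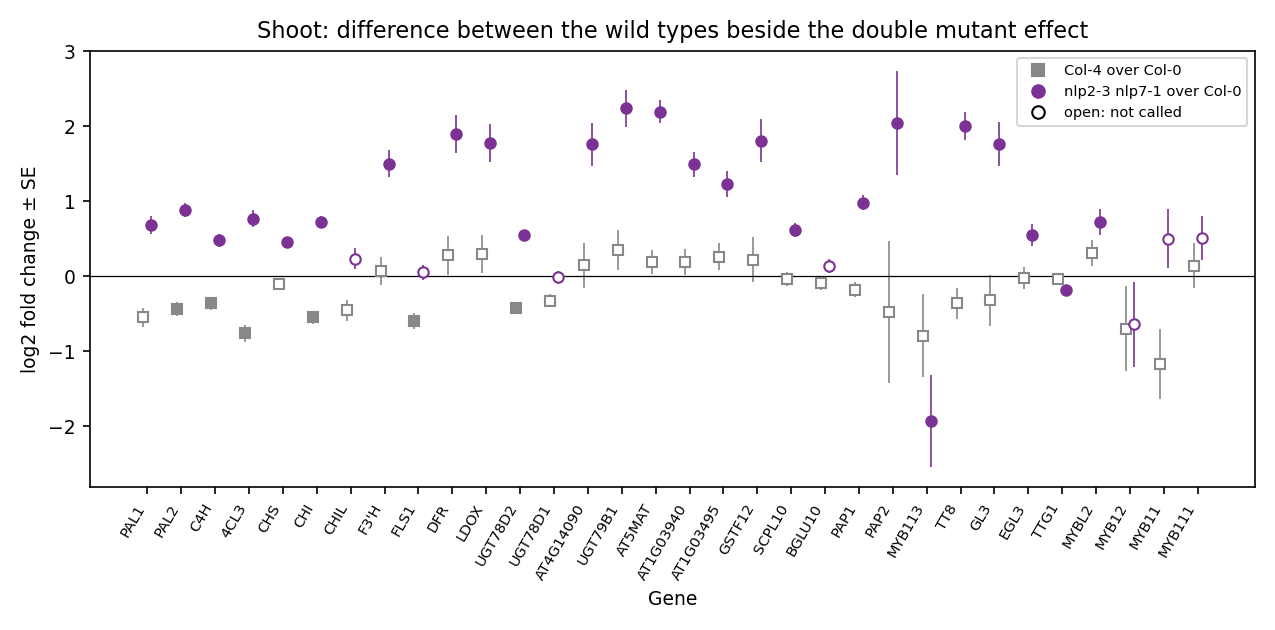
log2 fold change with its SE in shoots for the 32 tested genes, of Col-4 over Col-0 (grey squares) and of the double mutant over Col-0 (purple circles). Filled symbols are called. The 6 called differences between the wild types are all below 0 and lie in entry, early and decoration genes, and both late genes are open grey squares near 0.3.

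In some groups the late and anthocyanin decoration genes also ranked the replicates in their own order. Over DFR, LDOX and 7 anthocyanin decoration genes, Col-4 replicate 3 and nlp2-3 replicate 3 were the lowest shoot library of their group in all 9, and nlp7-1 replicate 1 the highest in all 9. In double mutant shoots replicates 1, 2 and 3 were the highest in 4, 3 and 2 of these 9. Over 9 other genes, those of entry with CHI, CHIL, FLS1, UGT78D1 and UGT78D2, nlp2-3 replicate 3 was instead the highest of its group in 8, as was nlp7-1 replicate 3. CHS and F3'H were in neither set. Genes of a library share their source, so these counts are a description and not independent events.

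The double mutant was also compared with the single mutants in shoots. Against nlp2-3, 21 of 32 genes were higher and 0 lower, where 13.6% of all genes were higher and 12.9% lower. TT8 was higher by 1.21 ± 0.18, AT5MAT by 1.13 ± 0.14 and DFR by 0.97 ± 0.25. Against nlp7-1, 18 were higher and 0 lower, where 3.77% of all genes were higher and 4.23% lower. TT8 was higher by 1.48 ± 0.18, DFR by 1.38 ± 0.25, LDOX by 1.32 ± 0.24 and PAP1 by 0.34 ± 0.09. The interaction of the mutations asks whether the log2 change in the double mutant departs from that of nlp2-3 plus that of nlp7-1. It was called by edgeR for 0 of 32 genes, with 4 at an unadjusted p under 0.05 and 0 by DESeq2 or limma, where it was called in 3.76% of all genes. With the replicate number as a block some of the genes were called, with the count given further below. The interaction was 0.69 ± 0.26 for TT8 (adjusted p = 0.159), 0.45 ± 0.35 for DFR and -0.17 ± 0.14 for PAP1.

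In roots the pathway stood at a far lower level. Comparing Col-0 shoots with Col-0 roots in a fit of all 36 libraries, 27 of 32 genes were higher in shoots, where 36.4% of all 21554 genes were, and 4 were lower, where 42% were. CHS was higher by 10.46 ± 0.35, LDOX by 7.30 ± 0.46, DFR by 6.89 ± 0.52, FLS1 by 7.01 ± 0.18 and PAP1 by 8.53 ± 0.24. The 4 genes lower in shoots were C4H (-1.52 ± 0.08), PAL1 (-0.54 ± 0.10), GL3 (-1.93 ± 0.23) and EGL3 (-0.67 ± 0.16). By limma on log2(FPKM + 1), without TMM scaling, PAL2 was called lower too (-0.56, adjusted p = 1.37e-06). Of the entry genes, C4H stood at 552 ± 28 FPKM and 4CL3 at 0.513 ± 0.23 FPKM in Col-0 roots. CHS was at 0.379 ± 0.355 FPKM there and at 324 ± 24 FPKM in Col-0 shoots. PAP1, PAP2, MYB113, MYB114, TT8, MYBL2, MYB11, MYB111, AT5MAT and F3H were too low to test in roots.

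In double mutant roots 13 of 24 tested genes rose and 1 fell, where 12.9% of all 20486 genes rose and 12.2% fell. All 5 tested early genes and both late genes rose, from levels near the limit of detection. All 3 double mutant libraries lay above those of Col-0 for 13 of the 24 genes, against 18.3% of all genes, and below them for 2, against 17.8%. PAL1, CHI and LDOX lay above all 15 other root libraries, where 3.14% of all genes did. The low genes (CHS, F3'H, DFR, LDOX and UGT79B1) passed the filter with 5 to 12 libraries outside the double mutant. The number called was 7 without Col-0 replicate 2, 9 without double mutant replicate 3 and 9 in a fit of only these groups, and the calls of PAL1, CHS, CHI, LDOX and UGT78D1 held under every alternative.

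CHS stood at 0.182, 0.432 and 1.35 CPM in Col-0 roots and at 3.05, 4.06 and 7.62 in the double mutant (2.91 ± 0.64, adjusted p = 0.003), on 39 and 341 counts. DFR stood at 0, 0.0540 and 1.3 CPM in Col-0 and at 1.78, 3.34 and 3.79 in the double mutant (2.71 ± 0.92, adjusted p = 0.0416), a call lost under 7 of 14 alternatives, among them DESeq2 (adjusted p = 0.0982). LDOX stood at 0.0455, 0 and 0.848 CPM in Col-0 and at 2.29, 1.83 and 2.69 in the double mutant (2.90 ± 0.74, adjusted p = 0.00786). In all 3 genes the groups did not overlap.

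Leaf markers were read in the same root libraries. Over the 6 leaf markers the summed level was 36.2 to 113 CPM in Col-0 roots and 37.2 to 69.97 in double mutant roots. Single markers went both ways: RBCS1A, a Rubisco subunit, stood at 0.818 to 5.84 CPM in Col-0 roots and at 2.54 to 7.12 in the double mutant. RCA, the Rubisco activase, was higher in all 3 double mutant libraries (10.2 to 11.2 CPM) than in those of Col-0 (7.46 to 9.68). LHCB1.3, a light-harvesting protein, stood at 20.5 to 77.3 CPM in Col-0 and at 19.8 to 40.8 in the double mutant. The part of leaf RNA in the root values of the pathway genes was not tested. In the double mutant CHS stood at 0.404 to 1.01% of its shoot level, LDOX at 1.87 to 2.74% and DFR at 1.49 to 3.17%, each above the share of any leaf marker there (at most 0.251%). In Col-0 roots CHS stood at 0.0331 to 0.245% of its shoot level, within the range of the leaf markers, and DFR at 0 to 4.06% and LDOX at 0 to 2.97%. Col-0 replicate 3 had the highest summed leaf markers of all root libraries (113 CPM), the library that was also highest of its group in CHS, DFR and LDOX.

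**Figure D4:**
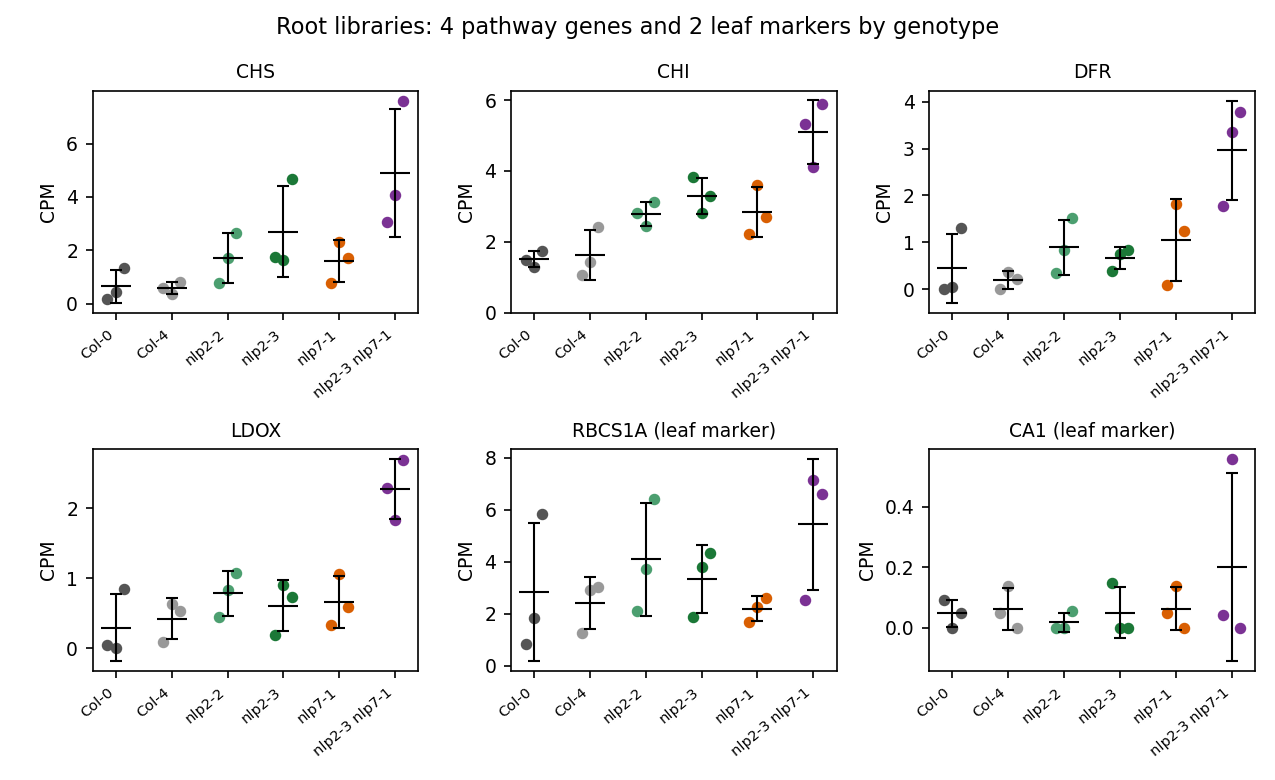
CPM in each of the 3 root libraries (points) of the 6 genotypes for CHS, CHI, DFR and LDOX and for the leaf markers RBCS1A and CA1, with the mean and SD (bars). CHI and LDOX were highest in all 3 double mutant libraries, and RBCS1A reached 5.84 CPM in Col-0 and 7.12 in the double mutant.

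CHI stood at 1.5, 1.3 and 1.75 CPM in Col-0 roots and at 5.33, 4.10 and 5.88 in the double mutant (1.74 ± 0.26, adjusted p = 5.22e-05). F3'H stood at 0.182, 0.216 and 0.249 CPM in Col-0 and at 0.592, 1.71 and 1.28 in the double mutant (2.45 ± 0.82, adjusted p = 0.0354), a call lost under 7 of 14 alternatives. FLS1, which did not pass in shoots, stood at 1.23, 1.24 and 1.85 CPM in Col-0 roots and at 2.67, 2.19 and 3.83 in the double mutant (1.00 ± 0.27, adjusted p = 0.0108). That call was lost against Col-4 (adjusted p = 0.102) and without double mutant replicate 3. CHIL rose by 0.62 ± 0.22 (adjusted p = 0.0477), a call lost under 9 of 14 alternatives.

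Of the 4 entry genes 3 rose in double mutant roots. PAL1 stood at 718, 583 and 695 CPM in Col-0 and at 1062, 1032 and 996 in the double mutant (0.63 ± 0.07, adjusted p = 1.97e-06). PAL2 stood at 287, 224 and 284 CPM in Col-0 and at 314, 328 and 307 in the double mutant (0.26 ± 0.08, adjusted p = 0.0288), lost without Col-0 replicate 2 (adjusted p = 0.157). 4CL3 stood at 1.64, 0.703 and 0.898 CPM in Col-0 and at 2.88, 1.79 and 2.65 in the double mutant (1.15 ± 0.31, adjusted p = 0.01). C4H stood at -0.08 ± 0.07 and was not called.

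Of the decoration genes 9 were tested in roots, and 3 rose and 1 fell. UGT79B1 stood at 0.273, 0.594 and 0.399 CPM in Col-0 and at 1.23, 1.59 and 0.958 in the double mutant (1.59 ± 0.47, adjusted p = 0.0184). UGT78D2 stood at 3.91, 3.62 and 4.99 CPM in Col-0 and at 6.77, 6.17 and 7.75 in the double mutant (0.72 ± 0.21, adjusted p = 0.0143). UGT78D1, the rhamnosyltransferase of flavonols, fell: it stood at 15.1, 16.3 and 20.1 CPM in Col-0 and at 10.8, 10.8 and 11.0 in the double mutant (-0.66 ± 0.13, adjusted p = 0.00108). BGLU10 rose by 0.23 ± 0.08. No regulator was called among the 4 tested (GL3, EGL3, TTG1 and MYB12), and PAP1 stood at 0.136, 0 and 0.349 CPM in Col-0 roots and at 0.127, 0.159 and 0.137 in the double mutant.

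Few of the genes were called in single mutant roots. PAL1 rose in all 3, by 0.32 ± 0.07 in nlp2-2, 0.33 ± 0.07 in nlp2-3 and 0.47 ± 0.07 in nlp7-1. PAL1 stood at 845, 809 and 767 CPM in nlp2-2 against 661, 630 and 653 in Col-4, at 864, 782 and 856 in nlp2-3 and at 892, 934 and 936 in nlp7-1. None of these libraries overlapped its wild type. In nlp2-2 roots 1 of 24 genes rose and 1 fell, where 3.2% of all genes rose and 3.91% fell, and the gene that fell was UGT78D1 (-0.62 ± 0.13, adjusted p = 0.00645). With the replicate number as a block, 4 were called there, CHS among them (adjusted p = 0.0263). Without nlp2-2 replicate 1 the PAL1 call was lost (adjusted p = 0.053) and 1 gene stayed called.

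In nlp2-3 roots 3 of 24 genes rose and 0 fell, where 3.36% of all genes rose and 3.48% fell. Beside PAL1 these were FLS1 (1.31 ± 0.27, adjusted p = 0.0045) and CHI (1.12 ± 0.27, adjusted p = 0.0136). CHS stood at 1.76, 1.65 and 4.68 CPM, all above Col-0, and was not called (2.08 ± 0.65, adjusted p = 0.0708). It was called with the replicate number as a block (adjusted p = 0.0017), by DESeq2, with Col-4 as the wild type and without Col-0 replicate 3, 4 of 14 alternatives, over which the adjusted p ran from 0.0017 to 0.331. The PAL1 call was lost in a fit of only the groups compared (adjusted p = 0.101) and that of CHI without Col-0 replicate 2 or nlp2-3 replicate 1 (adjusted p = 0.0578 and 0.064), and FLS1 held throughout. Without Col-0 replicate 3 the count was 5. In nlp7-1 roots 3 rose and 0 fell, where 4.5% of all genes rose and 3.45% fell: PAL1, CHI (0.91 ± 0.27, adjusted p = 0.0462) and FLS1 (0.93 ± 0.28, adjusted p = 0.0434). CHI and FLS1 each lost the call under 7 of 14 alternatives, and 1 gene was left without Col-0 replicate 2 or nlp7-1 replicate 3.

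In roots few of the genes were called between the double and the single mutants. Against nlp2-3, PAL1 (0.30 ± 0.07), UGT79B1 (1.86 ± 0.48) and BGLU10 (0.32 ± 0.08) were higher, 3 of 24, and 0 were lower, where 2.82% of all genes were higher and 3.66% lower. That count was 0 without nlp2-3 replicate 2 and 1 without nlp2-3 replicate 1 or double mutant replicate 1. Against nlp7-1, CHI was higher (0.84 ± 0.24, adjusted p = 0.0448) and UGT78D1 lower (-0.46 ± 0.13, adjusted p = 0.045), where 2.44% of all genes were higher and 4.08% lower, and without any 1 library of either group at most 1 of them stayed called. By edgeR, DFR (2.14, adjusted p = 0.174) and LDOX (1.87, adjusted p = 0.107) were not called against nlp2-3, nor LDOX against nlp7-1 (1.75, adjusted p = 0.129). All of these were called by limma on log2(FPKM + 1), with only the groups compared and with the replicate block. The interaction was called by edgeR in 0 of 24, with 1 at an unadjusted p under 0.05 and 0 by DESeq2 or limma, where it was called in 0.239% of all genes.

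The effect of the double mutation differed between the tissues in 9 of 32 genes, where 23.2% of all genes differed. For 3 early genes the effect was larger in roots: the effect in shoots minus that in roots was -2.44 ± 0.54 for CHS, -1.02 ± 0.24 for CHI and -0.94 ± 0.28 for FLS1. It was more positive in shoots for GL3 (1.77 ± 0.30), AT1G03495 (1.63 ± 0.27), AT1G03940 (1.53 ± 0.26), PAL2 (0.62 ± 0.13), C4H (0.56 ± 0.12) and UGT78D1 (0.64 ± 0.16). DFR (-0.81 ± 0.88) and LDOX (-1.12 ± 0.81) were not called, with SEs close to 1 log2 unit. CHS, CHI and FLS1 lay under 8 CPM in every root library. For the single mutants the tissues differed in 1 of 32 genes for nlp2-2, where 2.64% of all genes differed, in 1 for nlp2-3, where 4.23% did, and in 4 for nlp7-1, where 6.39% did.

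**Figure D5:**
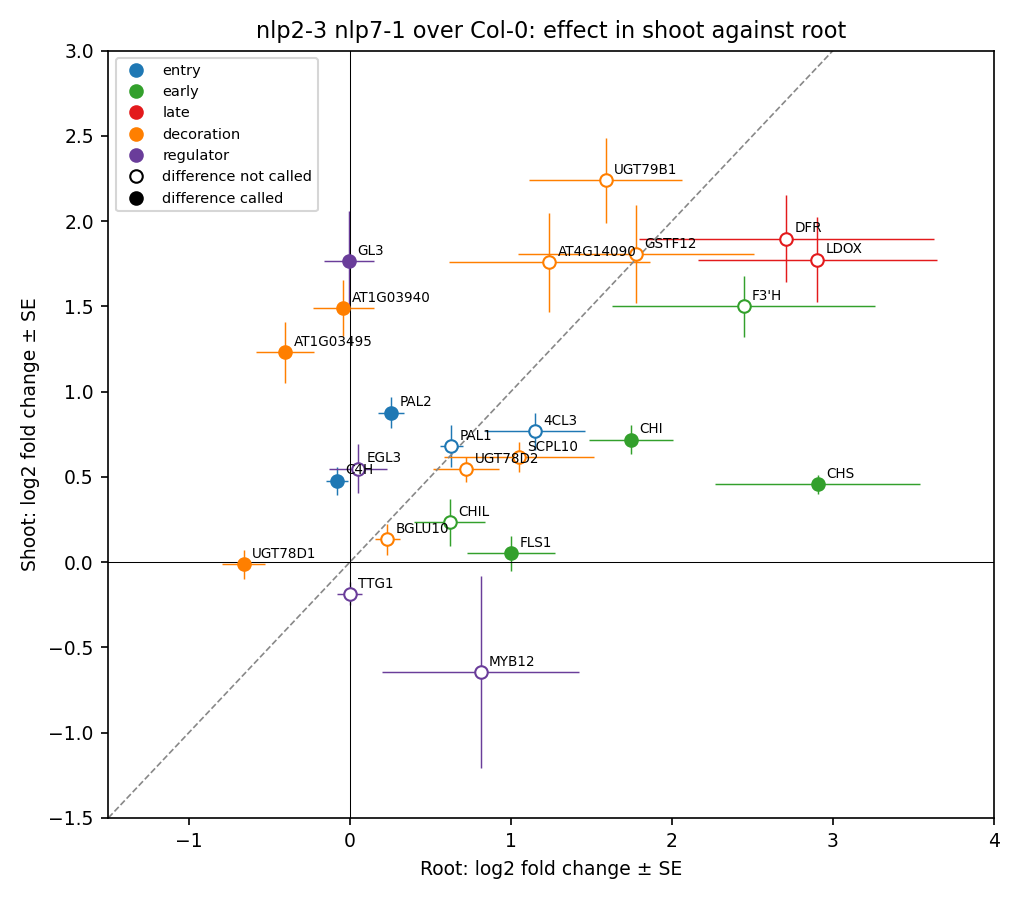
log2 fold change of the double mutant over Col-0 in roots (horizontal) and in shoots (vertical) with its SE for the genes tested in both tissues, coloured by role. The dashed line marks equal effects. Filled points are genes whose effect differed between the tissues: CHS, CHI and FLS1 lie below the line, and GL3, AT1G03940 and AT1G03495 above it.

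Neighbouring branches were read from lists written from general knowledge. Of 8 other entry and hydroxycinnamate genes 6 rose and 1 fell in double mutant roots, where 12.9% of all genes rose and 12.2% fell. 4CL1 rose from 371 ± 44 to 656 ± 40 CPM (0.82 ± 0.08). SNG1, a sinapoyl malate synthase, rose by 1.54 ± 0.40 at a low level, from 0.674 ± 0.23 to 1.95 ± 0.08 CPM. PAL3 fell from 9.31 ± 1.1 to 2.58 ± 0.61 CPM (-1.84 ± 0.17). All 6 lignin genes rose there, with CAD4 by 0.63 ± 0.09 and CCR1 by 0.54 ± 0.10. Root cell markers were higher in the same libraries: their summed level was 201 to 309 CPM in Col-0 roots and 312 to 413 in the double mutant. It was 230 to 330 in Col-4, 296 to 375 in nlp2-2, 295 to 409 in nlp2-3 and 328 to 379 in nlp7-1. For 4 of the 6 all double mutant libraries lay above those of Col-0, where 18.3% of all genes did. These were CASP1 of the endodermis, COBL9 and EXPA18 of root hairs, and AGP22. EXPA7 (16.6 to 23.6 CPM in Col-0, 17.2 to 33.9 in the double mutant) and MYB36 (14.7 to 19.3, 18.5 to 24.3) overlapped. The part of root cell markers in the root changes of these lists and of the pathway genes was not tested. In double mutant shoots 3 of the 8 rose and 1 fell, where 15.5% of all genes rose and 15.6% fell, and 5 of the 6 lignin genes rose, COMT1 from 193 ± 21 to 401 ± 37 CPM (1.05 ± 0.07). Proanthocyanidin genes, whose products colour seed coats, were mostly too low to test: 3 of 7 passed the filter in roots and 1 in shoots, with medians of 0.53 and -0.02 in the double mutant. Of 5 other flavonol genes 2 were tested, and FLS3 rose in double mutant roots by 0.50 ± 0.12.

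Among 8 upstream regulators, repressors of the LBD family fell in double mutant shoots, and LBD38 and LBD39 fell in its roots. LBD37, LBD38 and LBD39 are nitrate-induced genes known in Arabidopsis to hold down PAP1 and other anthocyanin regulators. In double mutant shoots LBD38 fell from 13.8 ± 0.88 to 6.79 ± 0.30 CPM (-1.02 ± 0.10), LBD37 by 0.76 ± 0.08 and LBD39 by 0.75 ± 0.12 on the log2 scale. In nlp7-1 shoots LBD38 (-0.38 ± 0.09) and LBD39 (-0.52 ± 0.11) fell, and in nlp2-2 and nlp2-3 shoots LBD37 (-0.48 ± 0.08 in each). In double mutant roots LBD38 (-1.13 ± 0.09) and LBD39 (-1.46 ± 0.07) fell as well, where PAP1 and TT8 were too low to test, and LBD37 was not called (-0.28 ± 0.10, adjusted p = 0.0563). LBD38 also fell in nlp2-2 (-0.35 ± 0.09), nlp2-3 (-0.42 ± 0.09) and nlp7-1 (-0.92 ± 0.09) roots. LBD39 stood at 77.1 ± 5.3 CPM in Col-0 roots, 67.9 ± 2.3 in nlp2-3 and 29.0 ± 2.3 in nlp7-1. It stood at 63.2 ± 4.0 CPM in nlp2-2 roots against 79.2 ± 3.4 in Col-4. LBD37 had higher means in nlp2-2 roots (137 against 115 CPM in Col-4) and nlp2-3 roots (123 against 105 in Col-0). LBD38 in shoots was the only gene of the 5 lists with a called interaction (-0.59 ± 0.14, adjusted p = 0.012). Of the 8, 1 rose and 4 fell in double mutant shoots, where 15.5% of all genes rose and 15.6% fell, and 2 rose and 2 fell in roots, where 12.9% rose and 12.2% fell. HY5, a light-response regulator, rose in shoots (0.36 ± 0.14), and SPL9 (0.64 ± 0.22) and MYB4 (0.39 ± 0.10) rose in roots.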

How the data were processed

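The authors deposited raw counts per gene and FPKM for 36 libraries, 3 per genotype and tissue. Per the submitters' processing notes HISAT2, HTSeq and TAIR10 were used, and versions, gene models and strand setting are not given in the sources used here. The deposited FPKM followed from the counts, each column's total and 1 length per gene, checked on the 11125 genes with over 100 counts in every library. Gene starts and sequences come from the RefSeq annotation of TAIR10.1, whose exon lengths matched those implied by FPKM for 22 of the 34 genes.

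The counts were fitted with edgeR 4.0.16 in R 4.3.3 (filterByExpr with a minimum count of 10 and total of 15, TMM, robust quasi-likelihood F test, two-sided), 1 mean per genotype, with 18 libraries per tissue and 12 residual degrees of freedom, or all 36 libraries for differences between tissues. P-values were adjusted by Benjamini-Hochberg over all genes tested and measure the spread between biological replicates. The SE is the log2 fold change over the square root of F. A test on simulated data recovered 90% of 100 genes changed by 1 log2 unit for the double mutant in shoots and 79% in roots. Those genes were drawn at random from all genes tested, so the shares do not give the recovery of the pathway genes. In roots the biological coefficient of variation between replicates was 90.2% for DFR, 59.5% for LDOX and 49.4% for CHS, against a median of 9.29% over all genes. Alternatives were RLE scaling, no filter, DESeq2 1.42.0, limma 3.58.1 on log2(FPKM + 1) and log2(FPKM + 0.1) for genes with a mean of at least 0.1 FPKM, the other wild type, only the groups compared, a replicate block and each library left out.

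Samples with the same number deviated together in nlp2-2 with Col-4 roots (correlations 0.109 to 0.184) and nlp2-3 with Col-0 roots (0.235 to 0.381). The limit for pairing was a correlation over 0.1 at every replicate number, and shoot values of the single mutants are given further below. The labels give no meaning for the number. Values in every library are given for CHS, DFR, LDOX and PAP1, for up to 3 further genes per role with the largest called change in the double mutant, and for genes called in both nlp2 mutants. The members and lists were chosen with earlier results of these data known.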

Additional observations from a re-analysis of the deposited data

Results flagged for a closer look

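The effect of a mutation differed between the tissues, by the test of the difference in the fit of all 36 libraries (edgeR, adjusted p under 0.05), in 15 instances. The calls were 28.1% of the genes tested for the double mutant, where 23.2% of all genes were called, and 12.5% for nlp7-1, against 6.39%. They were 3.12% for nlp2-3, against 4.23% of all genes, and 3.12% for nlp2-2, against 2.64%. Values are the log2 effect in shoots minus that in roots. For the double mutant these were CHS (-2.44), CHI (-1.02), FLS1 (-0.94), GL3 (1.77), AT1G03495 (1.63), AT1G03940 (1.53), UGT78D1 (0.64), PAL2 (0.62) and C4H (0.56), and all but that of FLS1 kept the call under every alternative. For nlp7-1 they were FLS1 (-1.10), GL3 (1.07), AT1G03495 (1.00) and AT1G03940 (0.87), for nlp2-3 FLS1 (-1.24) and for nlp2-2 UGT78D1 (0.67), and each of these 6 lost the call under at least 1 alternative. AT1G03940 and AT1G03495 are 97.6% identical in their coding bases, so their flags may rest on shared reads. CHS and FLS1 lay under 8 CPM in every root library.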

How the results depend on the processing

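Counts of pathway genes called kept within 1.5 times the reported number under RLE scaling and without the filter. With DESeq2 they moved to 14 in nlp2-3 shoots and 2 for its tissue difference. With the other wild type they were 7, 17 and 15 in nlp2-2, nlp2-3 and nlp7-1 shoots. With only the groups compared they were 9 in double mutant roots, 1 in nlp7-1 roots and 11 in nlp7-1 shoots. limma on log2(FPKM + 1) gave 5 for the double mutant against nlp2-3 in roots, and 5 and 19 for the tissue differences of nlp2-3 and of the double mutant. limma on log2(FPKM + 0.1) gave 0 for the double mutant against nlp7-1 in roots and 2 for the tissue difference of nlp7-1. The replicate block gave 4 in nlp2-2 roots and 6 in nlp7-1 roots. For the double mutant in roots it gave 5 against nlp2-3 and 5 against nlp7-1. In shoots it gave 3, 14 and 12 in nlp2-2, nlp2-3 and nlp7-1, and 3 for the interaction. It gave 2 for the tissue difference of nlp2-3. Of these, only nlp2-2 roots and the root samples of that tissue difference met the limit for pairing. In single mutant shoots the same-numbered correlations were positive and above those of other numbers, but not all over 0.1. They were 0.0864 to 0.159 in nlp2-2, 0.0879 to 0.0959 in nlp2-3 and 0.0825 to 0.116 in nlp7-1, each with its wild type. With 1 library left out the counts ranged in roots over 1 to 3 (nlp2-2), 2 to 5 (nlp2-3), 1 to 3 (nlp7-1), 7 to 12 (double mutant), 0 to 3 (double mutant against nlp2-3) and 0 to 1 (against nlp7-1), and in shoots over 4 to 12 (nlp2-3), 2 to 5 (nlp7-1), 22 to 25 (double mutant), 16 to 21 and 12 to 17 (double mutant against nlp2-3 and nlp7-1) and 3 to 5 (Col-4 against Col-0). They stayed at 0 for nlp2-2 shoots, Col-4 against Col-0 in roots and both interactions, and at 31 to 32 for Col-0 shoots against roots. For the tissue differences they ranged over 0 to 1 (nlp2-2), 0 to 4 (nlp2-3), 1 to 4 (nlp7-1) and 8 to 10 (double mutant). AT1G03495 turned sign between Col-0 shoots and roots, from 0.49 to -0.20 by limma on log2(FPKM + 1) and -0.24 on log2(FPKM + 0.1). PAL2 moved in the same direction, from 0.14 by edgeR (adjusted p = 0.167) to -0.56 by limma on log2(FPKM + 1) (adjusted p = 1.37e-06). FPKM carries no TMM scaling, so values between the tissues depend on the scaling used. Of the values of named genes 2684 kept call and direction, 250 lost and 39 gained a call. The cause of these shifts was not tested. Depth limits the root values, where most late genes lay under 4 CPM.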

Other observations

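F3H, which encodes the hydroxylase between CHI and the dihydroflavonols, was listed at 2 counts over all 36 libraries, while CHS, an earlier step of the pathway, had 39412 in the 3 Col-0 shoot libraries. In the TAIR10.1 annotation 94.5% of its length is overlapped on the opposite strand by the long noncoding RNA gene AT3G51238, which was at 0 counts. Of 670 protein-coding genes with such an overlap over at least 90% of their length, 583 (87.0%) had under 10 counts in all libraries together, against 3465 of 20688 (16.7%) without one. The strand setting of the counting is not given in the sources used here, and its part in the F3H value was not tested. The level of F3H in these plants is therefore unknown.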
